A study of Mus musculus with 33 samples.

Results

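Cassette exons that wild-type (WT) cardiac myocytes mostly skip were compared between WT cells and cells with a knockout (KO) of Rbfox2. RASL-seq ligates and counts pairs of probes that meet at splice junctions, with separate counts for the short and the long form of an event. The long isoform is taken here as the one that holds the cassette exon, and its share is long counts divided by short plus long counts, in percent. Of 3885 events in the table, 2032 had a mean of at least 20 counts, and of at least 1 count per isoform, over the 18 libraries. Of these, 1961 were cassette events, and 425 events of 401 genes had a mean long share under 10% over the 9 WT libraries. These 425 events are the members described here. They were chosen by the WT share, which is therefore a description and not a result.

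All libraries came from cardiac myocytes of mice on a Black Swiss background. WT and KO were each measured by RASL-seq at 5, 9 and 18 weeks of age and by 3′-end RNA sequencing at 9 weeks, with 3 libraries per genotype and age in each assay. The labels used here give a single sample for each genotype and age. They do not state which part of Rbfox2 was deleted, the promoter or cell type of any Cre, or whether the 3 libraries came from separate animals. All p-values therefore measure the spread between libraries, which may be technical. The other samples of the series, by ChIP-seq, CLIP-seq or GRO-seq, were not analysed here.

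Rbfox proteins bind RNA at a short GCAUG motif in introns near alternative exons. As background, binding downstream of a cassette exon tends to favour its inclusion, and binding upstream or within it tends to favour skipping. Rbfox2 is expressed in heart and skeletal muscle, where many alternative exons lie in genes of the cytoskeleton, membrane traffic and signalling. The files hold no exon sequence or position for the events, so no motif was searched and each event is given by its gene symbol and event number.

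The RASL-seq libraries held 1998027 to 12876511 counts, and members had mean counts per library of 20.2 to 81569, with a median of 491. By Rbfox2 event 7670, WT libraries had 201.7 to 342.9 counts per 1000000 and KO libraries 18.0 to 93.2, with no overlap. Event 8783 separated the genotypes too, at 66.9 to 119.2 and 7.01 to 41.9, but event 8797, at 1.50 to 7.03 in all libraries, did not, and at week 9 it was higher in KO (4.70 to 7.03) than in WT (2.87 to 3.49). By 3′-end sequencing, Rbfox2 stood at 322.8, 296.7 and 214.4 reads per 10000000 (RP10M) in WT and at 117.3, 81.7 and 66.4 in KO. Markers of other cells were measured at 9 weeks only, as sums in RP10M. The 7 atrial markers summed to 2025 to 4001 in WT and 20210 to 35700 in KO, with Bmp10 at 0 in all libraries. By limma, 4 of the 6 tested were called higher. The 12 fibroblast markers summed to 867 to 5437 in WT and 4180 to 6844 in KO, and 1 of the 10 tested was called higher. Epicardial markers summed to 85.0 to 276 and 257 to 426, and macrophage markers to 327 to 1024 and 1058 to 1501. Of these, 1 of the 4 and none of the 8 tested were called by limma. On average, all tested markers of the atrial (6), fibroblast (10), epicardial (4) and macrophage (8) sets were higher in KO. Endothelial markers (5427 to 12690 and 5552 to 7152) and smooth muscle markers (5698 to 7529 and 5331 to 6897) overlapped between WT and KO, with 1 smooth muscle marker called lower. The 10 ventricular markers summed to 992700 to 1099000 in WT and 1090000 to 1140000 in KO, although 2 of the 10 were called lower. In such bulk samples fewer cells of a type and less RNA per cell cannot be told apart. The part of these markers in the splice results was not tested.

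WT shares of the members ran from 0.00515% to 9.94%, with a median of 2.57%. A mean WT share under 1% was found for 112 members, 1% to under 5% for 196, and 5% to under 10% for 117. Just inside the limit lay Hspa13 (7168), Magi1 (4507) and Commd7 (9186), at WT shares of 9.89%, 9.92% and 9.94%. Just outside lay Dnmt3b (7423), Mllt4 (4990) and Gab1 (3782), at 10.07%, 10.08% and 10.32%. Mean KO shares at weeks 5, 9 and 18 were 13.7%, 14.1% and 25.5% for Hspa13 and 29.4%, 26% and 47.6% for Mllt4. Another 498 cassette events were under the same WT limit but did not pass the count filter, 291 of them for too few counts in all and 207 for too few long counts. A skipped exon could pass the long-isoform minimum through KO counts, and 22 members had a WT mean of under 1 long count.

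Most members stayed skipped in KO, and the long share was called higher in a minority. A higher share need not mean more of the long isoform, since it also rises when short counts fall. More were called at the later ages, among the members as among all events tested. The long share was called higher in KO, at an edgeR adjusted p under 0.05 over all 2032 events, for 27 members at week 5, where 3.99% of all events tested were called higher. At week 9 it was 46 members, beside 7.97% of all events, and at week 18 it was 61, beside 10.8%. These are 6.35%, 10.8% and 14.4% of the members. The rule used the same WT libraries and a low share can rise farther than it can fall, so the split into rises and falls is a description only. Fewer members were called lower in KO: 8, 21 and 15, where 6.1%, 8.91% and 8.61% of all events tested were called lower. Counted in either direction, 8.24%, 15.8% and 17.9% of members were called, which is close to or below the 10.1%, 16.9% and 19.4% of all events.

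When the 6 WT libraries of the other 2 ages set the share that chose the members, the counts were almost as before. The count filter and the fit still used all 18 libraries, those tested included. The counts called higher were 27 of 429 at week 5, 46 of 427 at week 9 and 59 of 428 at week 18. Called lower were 9, 21 and 16. Leaving out KO week 9 library 2 brought the week 9 count from 46 to 25, and leaving out WT week 9 library 3 brought it to 26. Among the other 1536 cassette events, 48, 109 and 149 were called higher in KO and 114, 158 and 155 lower.

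The typical member moved little. The median difference of KO minus WT over all 425 members was 0.0999, 0.19 and 0.675 percentage points at weeks 5, 9 and 18, against 0.0596, 0.0523 and 0.223 over all events tested. Members called higher moved by a median of 5.55, 5.86 and 7.99 points, with the highest at 57.3, 62.2 and 73.7. A rise of at least 10 points was called for 7, 15 and 23 members, where 1.97%, 4.23% and 6.35% of all events tested rose as far. The KO mean reached 50% in 3 members, Pb1, Clip1 and Sorbs2, the same 3 at each age. Of the members called higher, 12 of 27, 22 of 46 and 25 of 61 rose by less than 5 points. The genotypes did not overlap in 25 of 27, 42 of 46 and 61 of 61 of the members called higher. Over the 2032 events, called or not, they did not overlap in 25.4%, 30.8% and 36.6%. A call itself favours groups that do not overlap, so these shares are not like for like.

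**Figure D1:**
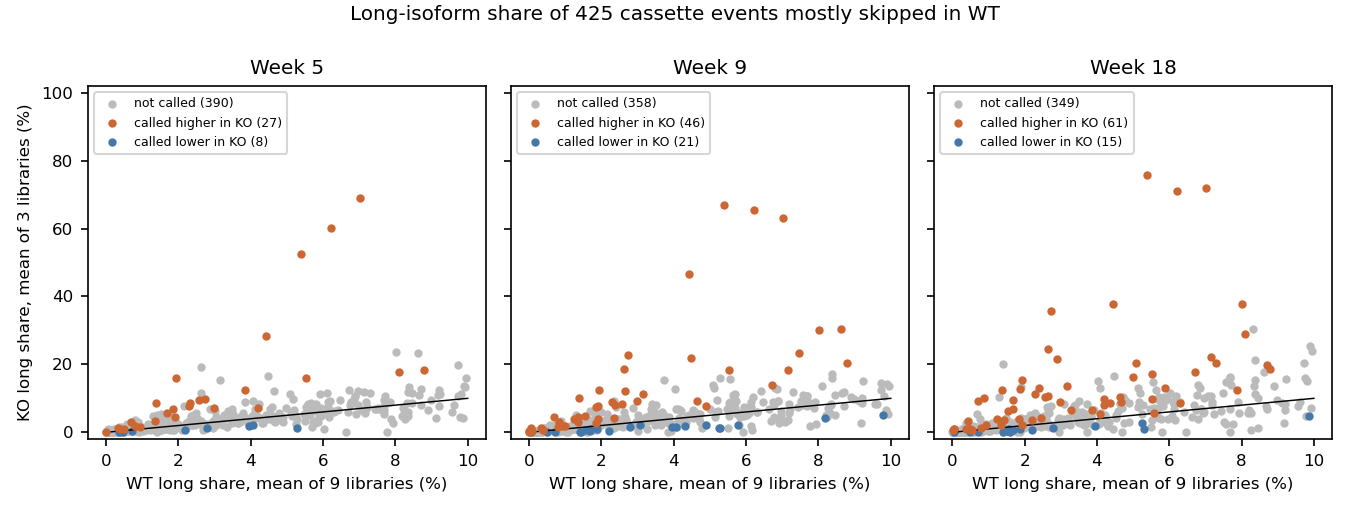
Each point is one of the 425 members, with the mean long share over 9 WT libraries on the x axis and the mean over 3 KO libraries on the y axis (both in percent), at weeks 5, 9 and 18; the line marks equal shares. Members called higher in KO are orange (27, 46 and 61), members called lower are blue (8, 21 and 15), and Pb1, Clip1 and Sorbs2 stand above 50% at each age.

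Over the 3 ages, 78 members were called higher at 1 age or more, where 14.3% of all events tested were, and 26 were called lower, beside 11.6%. No member was called in both directions. Of the 78, 18 were called at all 3 ages, where 2.51% of all events tested were called higher at all 3. Another 20 were called at 2 ages and 40 at a single age. The other 321 members were called at no age.

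The largest rise was that of event 3769 of Pb1. This symbol is ambiguous, since the RefSeq table lists it as an older name of both Pbrm1, a subunit of a chromatin remodelling complex, and Adgrg3, an adhesion receptor. In WT its long share was 4.01%, 11.3% and 12.1% at week 5, 5.52%, 4.45% and 4.54% at week 9, and 1.92%, 2.33% and 2.25% at week 18. In KO it was 60.3%, 53.0% and 43.9% at week 5, 50.8%, 76.5% and 74.0% at week 9, and 67.7%, 82.7% and 77.2% at week 18. The groups lay far apart at every age, and the lowest KO library was more than 30 points above the highest WT library. Means went from 9.14% ± 4.46 to 52.4% ± 8.26 at week 5, from 4.83% ± 0.593 to 67.1% ± 14.2 at week 9 and from 2.17% ± 0.216 to 75.9% ± 7.61 at week 18 (SD, n = 3 each). The log2 change of the long-to-short ratio at week 18 was 7.2 (SE 0.48, edgeR adjusted p = 2.37e-10).

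Clip1 encodes a protein that tracks the growing ends of microtubules. The WT share of its event 5004 was 3.64%, 16.1% and 15.1% at week 5, 7.58%, 2.5% and 12.4% at week 9, and 2.11%, 2.04% and 1.79% at week 18. In KO it was 75%, 63.4% and 68.2%, then 52.1%, 68.4% and 68.4%, then 70.1%, 79.3% and 66.7%. The KO libraries differed little between ages. The difference of means was 57.3, 55.5 and 70.0 points (log2 change 6.97, SE 0.64, edgeR adjusted p = 2.69e-08 at week 18). The event was probed at a mean of 187 counts, and WT libraries of week 18 held 2 to 3 long counts each.

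Sorbs2 encodes an adaptor that links actin and the Z disc, the border of the sarcomere. Its event 4048 was the most deeply counted of the 3, at a mean of 23690 counts. The WT share was 6.57%, 10.4% and 9.71% at week 5, 5.21%, 5.85% and 5.47% at week 9, and 3.95%, 4.38% and 4.45% at week 18. In KO it was 61.5%, 59.0% and 60.0%, then 54.1%, 71.0% and 71.3%, then 66.1%, 73.4% and 74.0%. All 9 KO libraries lay above 50% and the spread within an age was small except at week 9. The log2 change at week 18 was 5.81 (SE 0.27, edgeR adjusted p = 2.69e-12).

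Mbnl2 encodes an RNA-binding protein of the muscleblind family that regulates splicing itself. The WT share of its event 4827 was 2.79%, 2.21% and 1.24%, then 3.85%, 3.22% and 2.13%, then 1.81%, 3.66% and 3.63%. In KO it was 14.6%, 10.9% and 4.27% at week 5, 14.2%, 30.3% and 24.2% at week 9, and 25.9%, 42.7% and 38.9% at week 18. All KO libraries lay above all WT libraries, by the least in week 5 library 3. The KO mean stood at 9.93% ± 5.24, 22.9% ± 8.16 and 35.8% ± 8.80 (SD, n = 3), and the log2 change at week 18 was 4.22 (SE 0.52, edgeR adjusted p = 2.48e-06).

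Other members among the 12 largest changes were probed less deeply. Event 4812 of 4930589M24Rik, listed as Fam184a in RefSeq, had a mean of 20.6 counts, and its WT share ran from 0% to 11.1% with a median of 3.23%. Its KO share was 0%, 28.6% and 56.7% at week 5, 28.6%, 50.0% and 61.5% at week 9, and 42.1%, 54.5% and 16.7% at week 18. The KO library at 0% rests on 4 counts, and the WT libraries on 12 to 60. The week 9 log2 change of 3.80 (SE 1.03, edgeR adjusted p = 0.0120) did not pass without KO week 9 library 3 (adjusted p = 0.0723).

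Fam173b, listed as Atpsckmt, encodes a methyltransferase of mitochondria. In its event 7447 the WT share was 37.1%, 2.94% and 6.25% at week 5 and 1.32% to 6.54% in the other 6 WT libraries. In KO it was 36%, 33.9% and 1.43%, then 10.0%, 37.0% and 43.0%, then 30.5%, 44.5% and 38.5%. The groups overlapped at week 5, where the event was not called, and not at weeks 9 and 18. At week 18 the log2 change was 4.06 (SE 1.03, edgeR adjusted p = 0.00640).

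Cybasc3, listed as Cyb561a3, encodes a member of the cytochrome b561 family. Its event 7789 had WT shares of 2.07% to 5.66% at weeks 5 and 18 but of 13.5%, 24.7% and 12% at week 9. In KO the share was 10.4%, 13.9% and 29% at week 5, 11.2%, 17.2% and 12.4% at week 9, and 16.7%, 31.7% and 38.6% at week 18. The groups separated at weeks 5 and 18 and overlapped at week 9. The log2 change was 2.66 (SE 0.58, edgeR adjusted p = 0.00344) at week 5 and 3.15 (SE 0.57, adjusted p = 0.000276) at week 18.

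2310035C23Rik, listed as Relch, had WT shares of 0% to 14.8% with a median of 1.01% in event 4172. KO shares were 39.1%, 15.4% and 3.15%, then 14.5%, 34% and 7.14%, then 25%, 28.6% and 20.0%. The groups were apart at weeks 9 and 18, but the KO libraries of week 18 held 1 to 6 long counts. The week 18 log2 change of 5.64 (SE 1.68, edgeR adjusted p = 0.0194) did not pass without WT week 18 library 1 or 3 or KO week 18 library 2 (adjusted p = 0.0599, 0.0574 and 0.0891).

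Fam135a event 8453 was called at week 9 only, from WT shares of 4.44%, 3.97% and 11.2% to KO shares of 37.5%, 36.2% and 17.4%. That call did not hold without KO library 1 or 2 or WT library 1 or 2 of week 9 (edgeR adjusted p = 0.0696, 0.0910, 0.0524 and 0.0622), or by limma on log ratios (0.0732). Otud7b, which encodes a deubiquitinase, was called at week 18, where event 8520 went from 3.49%, 2.70% and 0% in WT to 13.3%, 23.2% and 27.9% in KO. Mcf2l encodes an exchange factor for small GTPases, and its event 4297 went from 4.48%, 0% and 0% to 19.1%, 18.0% and 24.3% at week 18. At weeks 5 and 9 the genotypes overlapped in both Otud7b and Mcf2l.

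Postn encodes periostin, a secreted matrix protein of fibroblasts and one of the fibroblast markers above. In week 9 its event 4248 went from 7.14%, 0% and 6.52% in WT to 21.7%, 27.1% and 16.5% in KO. The call (log2 change 2.42, edgeR adjusted p = 0.0302) did not hold without KO library 1 or 2 or WT library 2 or 3 of week 9 (adjusted p = 0.0550, 0.104, 0.106 and 0.0640), nor with the library number as a block (0.0767). The genotypes did not overlap at weeks 5 and 18 either, where the event was not called.

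**Figure D2:**
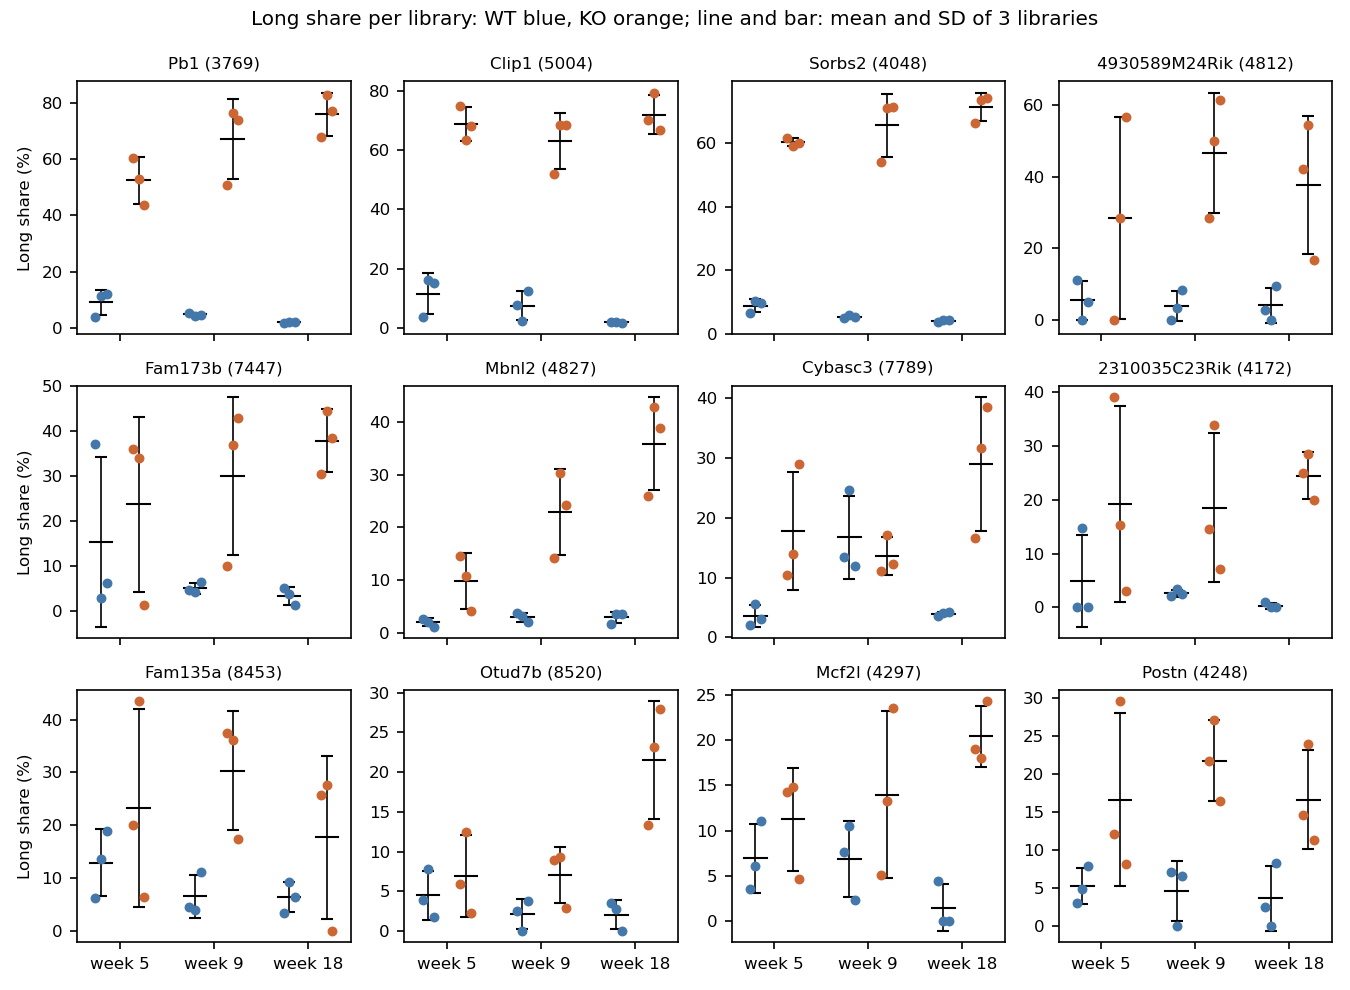
Long share in percent of the 12 members with the largest called change, in each of the 18 libraries, with WT in blue and KO in orange at weeks 5, 9 and 18; horizontal lines are means and bars the SD of 3 libraries, and each panel has its own y axis. Pb1, Clip1, Sorbs2 and Mbnl2 separate the genotypes at each age, while the other 8, Postn excepted, overlap at 1 age or more.

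The next members by size moved by 9 to 16 points. Ralgapa1, which encodes the catalytic subunit of a complex that switches off Ral GTPases, had KO means of 18.2% ± 4.66 at week 9 and 22.2% ± 2.67 at week 18, against 6.19% and 6.97% in WT (event 9265, called at both). Arhgap12 and Arhgef10, which encode regulators that switch small GTPases off and on, were called at week 18, Arhgap12 also at week 9, with KO means of 17.8% ± 5.10 (event 4575) and 19.8% ± 7.03 (event 3880), against 5.55% and 7.31%.

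Ppp3cc encodes a catalytic subunit of calcineurin, the calcium-dependent phosphatase. Its event 4997 stood at 16% ± 0.218, 18.5% ± 3.81 and 17.2% ± 2.02 in KO against 4.87%, 6.37% and 5.35% in WT. Strn3 encodes a striatin, a scaffold for protein phosphatase 2A, and its event 6997 stood at 16% ± 5.23, 12.6% ± 1.16 and 15.5% ± 0.797 in KO against 3.62%, 1.11% and 1.10%. Phka1 encodes a regulatory subunit of phosphorylase kinase, which turns on glycogen breakdown in muscle. Its event 3832 stood at 8.55% ± 2.46, 10.2% ± 2.29 and 12.6% ± 1.48 in KO against 2.23%, 0.958% and 0.925%. These 3 events were called at all 3 ages with no overlap.

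In membrane traffic and mitochondria, Clta (event 4303), which encodes a clathrin light chain, was called at weeks 9 and 18, with KO means of 11.2% ± 6.58 and 13.6% ± 4.75 against 1.46% and 2.31% in WT. Eea1 (7066), a tether of early endosomes, was called at week 18, at 16.2% ± 8.74 against 3.47%. Opa1 (3741), the GTPase that fuses inner mitochondrial membranes, was also called at week 18, at 13% ± 3.52 against 1.89%. At weeks 5 and 9 the Opa1 event was not called and the genotypes overlapped. Its shares at week 5 were 3.09%, 6% and 17.1% in WT and 0%, 1% and 15.6% in KO. At week 9 they were 9.48%, 5.81% and 5.86% in WT and 5.36%, 3.425% and 8.82% in KO. Chchd7 (8017), which encodes a small mitochondrial protein, was called at each age, at 18.4% ± 1.43, 20.5% ± 1.35 and 18.5% ± 3.23 against 8.87%, 9.80% and 7.70%. Slc47a1 (7546), an exporter of organic cations, was called at weeks 9 and 18, at 12.1% ± 6.29 and 10.7% ± 3.27 against 1.10% and 1.80%.

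The kinesin gene Kif21a had KO means of 6.78% ± 1.11, 7.45% ± 1.88 and 12.8% ± 4.66 in event 3736 against 1.23%, 1.61% and 2.74% in WT, called at each age. Dbp (7760), a transcription factor of the circadian clock, was called at each age too, at 7.66% ± 1.57, 8.98% ± 4.09 and 11.4% ± 5.29 against 2.15%, 2.70% and 2.00%. Of these calls only that of week 18 held in all 24 fits. The WT libraries of week 5 held 50 to 3469 counts of the Dbp event, 1 to 39 of them long. Nfib (8967), another transcription factor, was called at week 18, at 20.5% ± 5.99 against 7.32%. D4Wsu53e (4480, listed as Rsrp1) was called at week 18, at 13% ± 7.40 against 1.54%, and 4930534B04Rik (9215, listed as Cep128) at week 9, at 23.2% ± 4.80 against 7.07%. The remaining members called higher at all 3 ages, besides 4930589M24Rik (4812) described above, rose less. They are named to complete that group, after their values were seen. They were Lphn2 (4590), Msi2 (7261), Ptprm (4136), Immt (7361), Mprip (9004), 1500032D16Rik (4088) and Txnl4a (8527).

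**Figure D3:**
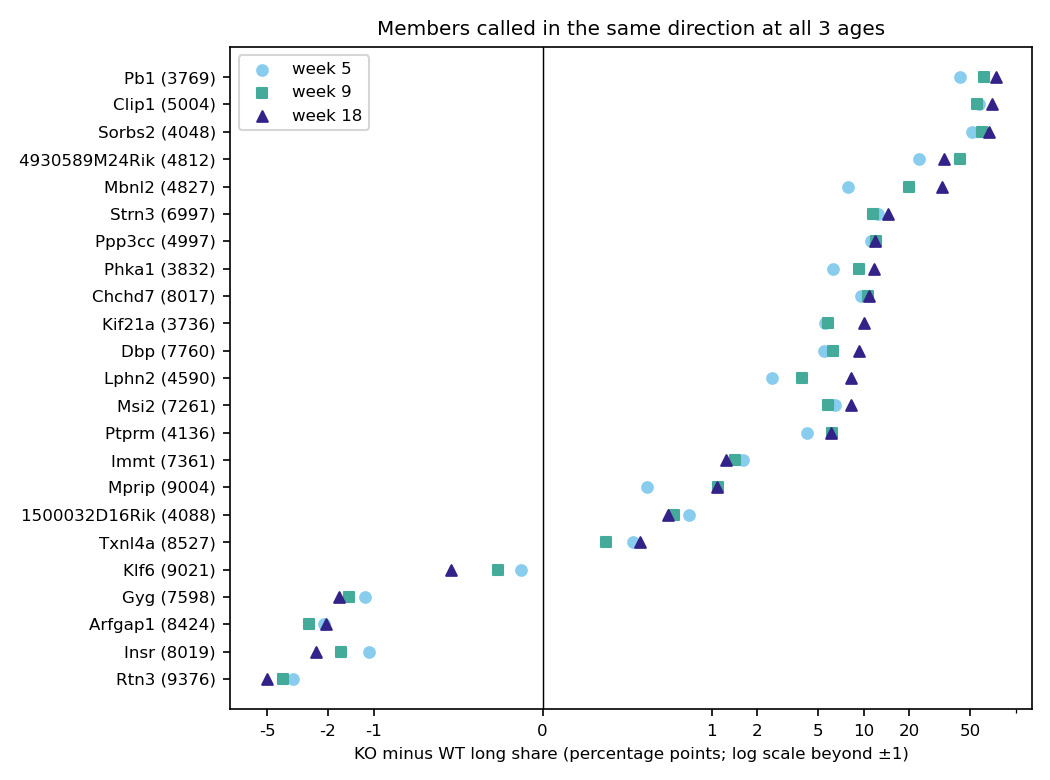
KO minus WT difference of mean long share in percentage points (x axis, linear between -1 and 1 and logarithmic beyond) for the 18 members called higher and the 5 called lower at all 3 ages, with a circle, square and triangle for weeks 5, 9 and 18. Differences run from -5.04 points (Rtn3, week 18) to 73.7 points (Pb1, week 18).

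The members called lower in KO started from mean WT shares of at most 9.86%, and the largest fall was 7.0 points. Single WT libraries could lie higher, at up to 13.4% in Clasp1 (5013). Rtn3 encodes a reticulon that shapes tubules of the endoplasmic reticulum. Its event 9376 had WT shares of 7.53%, 3.05% and 3.19%, then 4.71%, 6.30% and 4.40%, then 6.06%, 5.77% and 6.61%. In KO they were 1.43%, 0.944% and 1.24%, then 2.56%, 0.528% and 0.480%, then 1.69%, 0.298% and 1.35%. Every KO library lay below every WT library, and the log2 change at week 18 was -2.65 (SE 0.54, edgeR adjusted p = 0.000915). Arfgap1 (8424), which encodes a regulator of Golgi traffic through Arf GTPases, fell from 3.92%, 4.07% and 3.87% to 1.79% ± 0.396, 1.42% ± 0.5 and 1.81% ± 0.179, also called at each age. Ppfia1 (8178), a liprin scaffold, was called at weeks 9 and 18, where its share fell from 3.71% and 9.10% to 1.38% ± 0.498 and 2.62% ± 1.75. On the scale used above for the Rbfox2 events, its mean long counts were 1.92 in WT and 1.76 in KO at week 9. At week 18 they were 3.18 and 3.55. Its mean short counts rose from 49.9 to 127 at week 9 and from 31.4 to 129 at week 18. The lower share of this event thus went with more short counts, not with a clear fall in long counts. Myom1 (4370), a component of the sarcomere's M band, was called at weeks 5 and 9, where it fell from 5.24% and 4.14% to 2.22% ± 0.448 and 1.57% ± 0.184.

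The other 3 members called lower at all 3 ages, named after their values were seen, were Insr (8019), Gyg (7598) and Klf6 (9021). They encode the insulin receptor, the primer of glycogen synthesis and a transcription factor. Insr fell from 1.64%, 1.94% and 3.01% to 0.567%, 0.298% and 0.618%, and Gyg from 2.40%, 2.90% and 3.03% to 1.27%, 1.46% and 1.35%. Klf6 fell from 0.278%, 0.462% and 0.706% to 0.151%, 0.199% and 0.163%.

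The table held 24 other events of the named genes, of which 9 were called at an age and 15 at no age. Kif21a event 8747 was mostly included in WT and fell by 77.4, 87.0 and 87.9 points in KO, while member event 3736 rose. Pb1 event 4647 fell from 45.9%, 53.2% and 60.7% in WT to 17.8%, 11.5% and 10.1% in KO, while member event 3769 rose. Clip1 event 4104 fell from 96.7%, 98.1% and 99.6% to 81.3%, 89.1% and 83.6%. Ppfia1 event 4682 rose from 18.9%, 11.6% and 11.02% to 54.6%, 55.1% and 67.2%, while member event 8178 fell. Mbnl2 event 4811 rose from 18.0%, 13.05% and 10.8% to 35.4%, 31.3% and 38.6%, along with member event 4827, while a further Mbnl2 member (8565) was called at no age. Except for Mbnl2 8565, these other events were called at each age by edgeR. The files do not say whether events of a gene share an exon or a junction.

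Sorbs2 had 3 members, and they differed. Event 4048 reached 71.2% in KO at week 18, event 4748 rose from 1.94% ± 1.11 to 6.89% ± 1.73 at that age (edgeR adjusted p = 0.00622), and event 4596 stayed between 0.0253% and 0.142% in every group mean and was not called. Event 4748 stood at 1.21% in WT and 3.26% in KO at week 5 and at 1.92% and 3.57% at week 9, where it was not called (adjusted p = 0.0795 and 0.116). Outside the members, Sorbs2 event 4678 fell from 98.6%, 98.9% and 99.1% to 88.5%, 88.2% and 88.8%, and event 4833 rose by 2.63, 3.14 and 3.43 points from WT means of 94.6%, 93.4% and 95.02%. Otud7b event 8935 rose by 18.3 and 17.8 points at weeks 5 and 9, where it was called, and stood 12.8 points higher at week 18, where it was not. The Otud7b member itself was called at week 18.

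Gene lists for 9 functions held 97 of the 425 members, and the other 328 members were in no list. The lists are not complete, so the counts per function are of listed genes only. Some called members with such functions are in no list, among them Msi2, Eea1, Dbp, Klf6, Arhgap12, Arhgef10, Mcf2l and Phka1. Over all events tested, 14.3% were called higher at an age and 11.6% lower, and no list is called different from this. Of 16 member events in genes of actin, the Z disc and the costamere (the link of the sarcomere to the membrane), 5 were called higher in KO at an age and 11 at no age. Besides both Sorbs2 events these were small changes, such as 0.815 points in Arhgef7 (8393) and 0.776 points in Ablim1 (4408). Of 4 members in the sarcomere list, 1 was called, Myom1, lower. Nrap (4390), a sarcomere gene outside the lists, was also called lower in KO at an age. Of 11 in microtubule and motor genes, Clip1 and Kif21a were called higher, and Clasp1 (5013, -7.0 points at week 9) and Nin (4066, -2.40 points at week 18) lower. Of 12 in membrane traffic, 3 were called higher (Clta, Opa1 and Ddef2) and 2 lower, among them Arfgap1.

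Of 17 members in genes of splicing and RNA binding, 4 were called higher and 13 at no age. After Mbnl2 came Fxr1h (4850, 8.29 points at week 18), Tial1 (7110, 2.95 points at week 18) and Pum2 (4135, 2.63 points at week 9). Of 11 in chromatin and transcription genes, 4 were called higher and 1 lower, among them Pb1 and Nfib higher and Med24 (4107, -3.16 points at week 9) lower. Pb1 is counted there under its reading as Pbrm1. Of 16 in genes of kinases, phosphatases and GTPases, 5 were called higher and 3 lower. Ralgapa1, Ptprm (6.18 points at week 9) and Dock9 (3851, 6.13 points at week 18) rose and Ppfia1 fell. Of 8 in adhesion and matrix genes, 3 were called higher: Postn, Col6a3 (4862, 8.83 points at week 18) and Neo1 (5007, 3.17 points at week 18). Of 2 in genes of ion channels and calcium, Ppp3cc was called higher. Among members in no list, 51 were called higher and 17 lower. The list medians of KO minus WT at week 18 ran from 0.041 points for the sarcomere to 4.91 for ion channels and calcium, against 0.223 over all events tested. The lists are short, and the 3 extreme rises belong to 3 different lists.

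**Figure D4:**
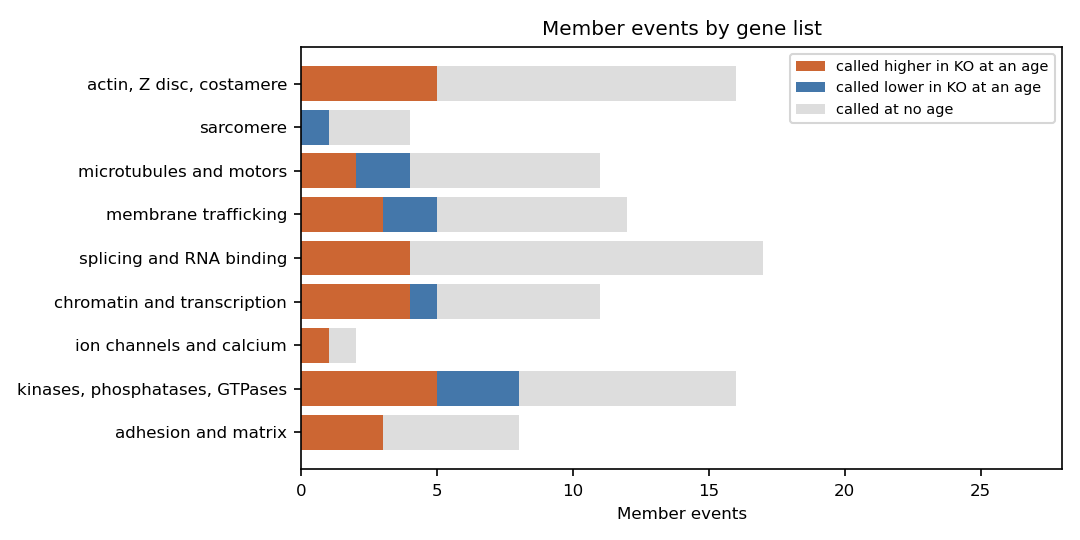
Number of member events (x axis) in each of 9 gene lists, divided into those called higher in KO at an age (orange), called lower (blue) and called at no age (grey). Events called at no age make up 50% or more of each list, from 1 of 2 for ion channels to 13 of 17 for splicing and RNA binding.

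The comparison between ages set KO libraries against KO libraries, but its spread was fitted over all 18 libraries. These include the WT libraries whose share chose the members, so the comparison is not independent of them. The count filter was a mean over all 18 libraries too, KO included. From week 5 to week 18 the long share rose in 9 members, where 2.85% of all events tested rose, and fell in none, where 0.689% fell (3.54% changed in either direction). By edgeR at an unadjusted p under 0.05, 57 members were higher and 18 lower, and DESeq2 called 9 higher and limma 7, both with none lower. Between weeks 5 and 9 no member was called, and 0% of all events tested were, with 41 members at an unadjusted edgeR p under 0.05. DESeq2 and limma called none either. Between weeks 9 and 18, 1 member was called, Fgfr1op, where 0.197% of all events were. DESeq2 called 4 members there and limma 1.

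Mbnl2 rose the most within KO, by 25.9 points (log2 change 2.52, SE 0.46, edgeR adjusted p = 0.00402), while its WT means were 2.08%, 3.07% and 3.03%. Pb1 rose by 23.5 points (log2 change 1.56, SE 0.43, adjusted p = 0.0483) while its WT means fell from 9.14% to 2.17%. Ddef2 (4120, listed as Asap2, a regulator of Arf GTPases) had KO shares of 2.01%, 3.19% and 0.800% at week 5 and 5.78%, 18.3% and 15.8% at week 18, against 4.46%, 0.917% and 5.44% in WT at week 18. Its KO groups of those ages did not overlap (edgeR adjusted p = 0.0109).

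Lass5 (3779, listed as Cers5, a ceramide synthase) rose with age in both genotypes. Its KO shares were 7.78%, 5.34% and 3.19% at week 5 and 17.4%, 13.9% and 16.6% at week 18 (edgeR adjusted p = 0.00463), and its WT means went from 4.27% ± 1.05 to 13.1% ± 0.619. At week 18 KO and WT were not called different (adjusted p = 0.552). Ralgapa1 rose by 10.2 points in KO (adjusted p = 0.0442), from 17.4%, 9.14% and 9.24% to 19.5%, 24.9% and 22.1%. Fgfr1op (7016, listed as Cep43, a centrosome protein) stood at 2.79% ± 0.666, 2.12% ± 0.428 and 8.36% ± 3.06 in KO at weeks 5, 9 and 18. It was called lower than WT at week 9, where WT stood at 5.11% ± 0.170, and was not called at week 18, where WT stood at 6.96% ± 1.11. The other 3 members, named because they complete the count, were Serpinh1 (7119, 5.41 points), Myl1 (4700, 1.45 points) and Pon2 (7032, 0.688 points).

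The count of 9 rests on few libraries. It was 2 without KO week 18 library 2, 3 without KO week 5 library 3 and 23 without KO week 18 library 1. Mbnl2 and Lass5 passed in each fit that left out a library and with each other tool or scaling tried. Ddef2 did not pass without KO week 18 library 2 or KO week 5 library 3 (edgeR adjusted p = 0.104 and 0.149) or by limma on log ratios (0.0662), and Fgfr1op not without KO week 18 library 2 (0.0567). Pb1 and Ralgapa1, whose adjusted p lay just under 0.05, did not pass without any of several libraries (up to 0.215 and 0.219, both without KO week 5 library 3), by limma (0.0913 and 0.0571) or with no count filter (0.145 and 0.0779). WT libraries of weeks 9 and 18 were among those several.

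The difference between genotypes itself changed between weeks 5 and 18 in 4 members, where 0.787% of all events tested changed (edgeR interaction). In Pb1, Sorbs2 and Phka1 it was larger at week 18, with KO means higher and WT means lower than at week 5, and in Nrap it went the other way, at group means under 0.1%. The difference in Pb1 passed under each of 25 alternatives, while those in Sorbs2, Phka1 and Nrap were lost in 4, 8 and 13 of them (adjusted p up to 0.0662, 0.0804 and 0.355).

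**Figure D5:**
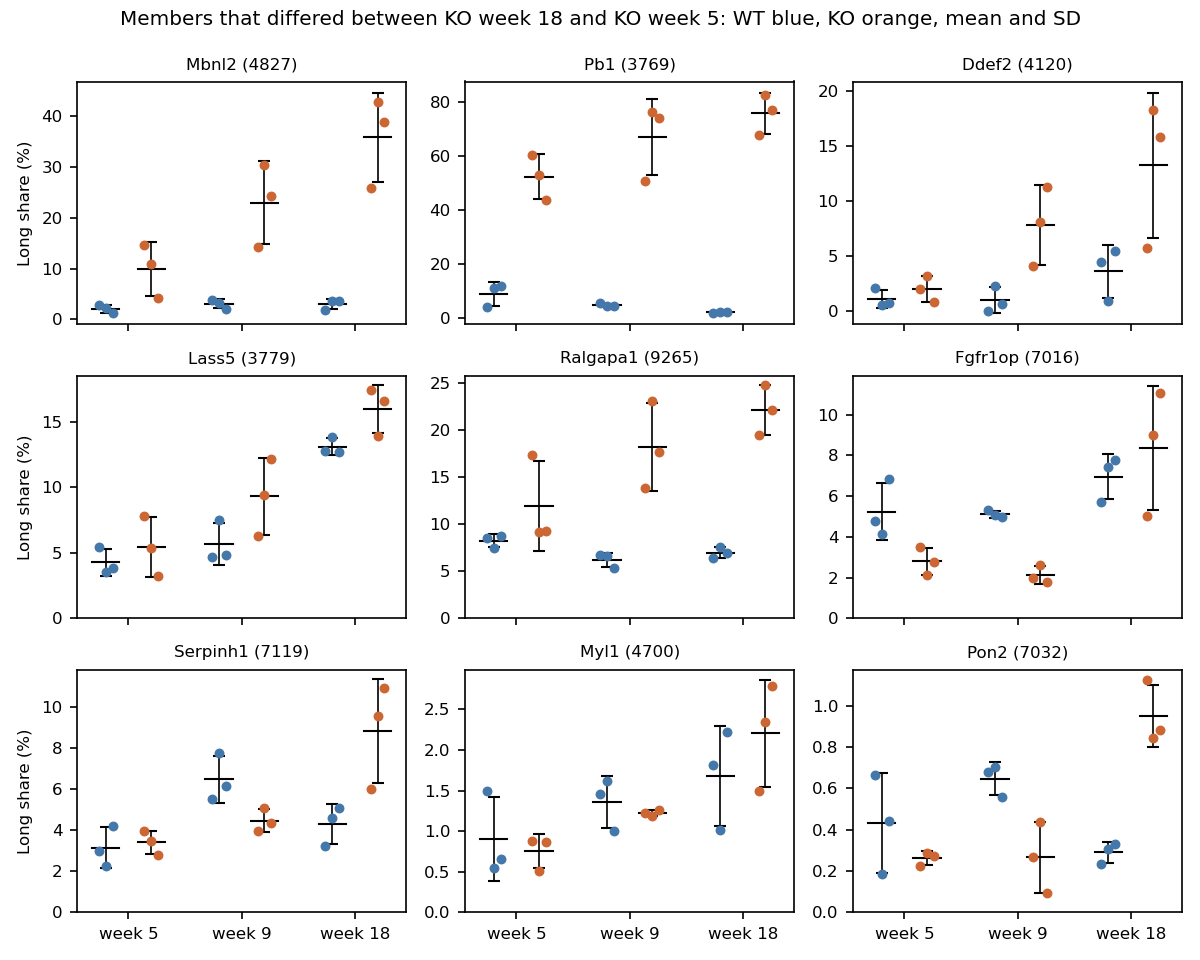
Long share in percent (y axis, own scale per panel) in each library of the 9 members that rose between KO week 5 and KO week 18, with WT in blue and KO in orange, and lines and bars for the mean and SD of 3 libraries. Mbnl2 and Pb1 rose in KO by 25.9 and 23.5 points, and Lass5 rose in WT as well, to 13.1%.

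The KO libraries of an age did not carry the same amount of Rbfox2. By event 7670, the most was left in library 3 of week 5 (93.2 counts per 1000000, against 41.3 and 44.8), in library 1 of week 9 (82.4, against 27 and 29.9) and in library 1 of week 18 (44.4, against 19.1 and 18.0). Of the members called higher in KO, this library had the lowest long share of its 3 in 11 of 27, 26 of 46 and 37 of 61. Over all 425 members it was the lowest in 155, 164 and 171. Across ages, mean Rbfox2 counts in KO also fell with age, and age and remaining Rbfox2 cannot be told apart in the comparison of KO ages.

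The total counts of an event, short plus long, depend on the amount of RNA probed. They also depend on how well each probe pair ligates, which can differ between isoforms. Which of these lay behind a change in total was not tested. The rule used totals only as a minimum mean over all 18 libraries. Totals differed between genotypes in 35 members at week 5, 53 at week 9 and 82 at week 18 (edgeR adjusted p under 0.05), where 7.97%, 12.6% and 19.5% of all events tested differed. Without KO week 9 library 2 the week 9 count was 26, and without WT week 18 library 3 the week 18 count was 51. Of the members called higher in share, 3 of 27, 10 of 46 and 18 of 61 also had a different total, and at week 18 it was lower in 14 and higher in 4. Sorbs2 event 4048 had a higher total in KO at each age (log2 change 0.90, 1.23 and 1.05, adjusted p = 0.00188, 3.73e-05 and 0.000172). The total of Pb1 event 3769 was lower at weeks 9 and 18 (-0.67 and -0.65, adjusted p = 0.0212 and 0.0176), and that of Clip1 event 5004 higher at week 18 (1.15, adjusted p = 0.00103). Totals of Mbnl2 event 4827 were not called at any age. D4Wsu53e event 4480 had a total lower by 2.07 on the log2 scale at week 18 (adjusted p = 6.59e-05).

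By 3′-end sequencing at 9 weeks, 398 of the 401 genes were found and 372 were tested by limma on log2(RP10M + 1). Of these, 3 passed, where 1.6% of all 10858 genes did, and 2 of the 3 were higher, beside 1.21% of all genes. Bdh1, an enzyme of ketone body metabolism, rose from 321.5, 477.7 and 251 RP10M in WT to 1293, 2117 and 2314 in KO (log2 change 2.45, SE 0.28, limma adjusted p = 0.00371). Its member event (9341) was called lower in KO at week 9. Flnc, which encodes filamin C of the Z disc and costamere, rose from 1717 ± 158 to 3545 ± 239 (1.05, adjusted p = 0.0103), and its member event was called at no age. Erc1, a scaffold of vesicle docking, fell from 760 ± 41.6 to 278 ± 64.4 (-1.48, adjusted p = 0.0132).

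Of the 73 tested genes with a member called higher in share, Erc1 was lower and none was higher by limma, with 5 higher and 9 lower at an unadjusted p under 0.05. On the recovered reads edgeR and DESeq2 also called none higher, and 1 and 2 lower. The median log2 change was -0.12 over these 73 genes, -0.03 over the 372 and 0.07 over all genes tested. Sorbs2 stood at 1894 ± 335 RP10M in WT and 2329 ± 59.1 in KO, Clip1 at 4869 ± 2311 and 2633 ± 968, and Mbnl2 at 1659 ± 411 and 1474 ± 198 (limma adjusted p = 0.370, 0.288 and 0.756). The Erc1 call was lost when WT library 2 (adjusted p = 0.0585), KO library 2 (0.0720) or KO library 3 (0.0836) was left out, and the Flnc call when any of the 3 KO libraries was (0.0566, 0.0736 and 0.0836). Bdh1 passed in each of these.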

How the data were processed

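The RASL-seq table deposited by the authors holds raw counts for both isoforms of each event, per the file headers. Their 3′-end table holds a signal, deposited as reads per 10000000 (RP10M) for each gene, per the file headers. Bowtie 0.12.7, cutadapt 1.2.1 and mm9 are named, with no role given, in the submitters' processing notes. The tables hold 3 numbered columns for each genotype and age. Counts of columns of a group differed by a chi-square per degree of freedom of 7.21 to 84.05, and they were treated as separate libraries.

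Isoform ratios were tested by edgeR 4.0.16 (R 4.3.3, quasi-likelihood, robust) on the counts of both isoforms, with library terms and isoform-by-group terms, over all 18 libraries and 2032 events, with Benjamini-Hochberg adjustment over all events and a threshold of 0.05. Total counts were tested by edgeR with TMM. The 3′-end signal was tested by limma 3.58.1 (trend, robust) on log2(RP10M + 1) for the 10858 genes whose mean was 10 or more; this scale understates changes of low genes. Whole reads were recovered from it (100% of values whole within 0.1) for edgeR and DESeq2 1.42.0, which were alternatives, as was DESeq2 for the isoform counts. The scripts were tested on simulated data.

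Probe pairs can ligate with unequal efficiency, so a share is of probe counts, not of molecules. The counts are of PCR products with no molecular identifiers, hence not of independent molecules. A count column is shared with another event in 18 members. Current names come from a RefSeq table of GRCm38.p6, in which 337 of 401 symbols were current, 61 were a unique older name, 2 were ambiguous and 1 had no match.

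Members named were those called at 2 or more ages, or at an age with a change of at least 10 points, with no overlap at that age, by size (12 in full, 16 in brief); up to 4 called lower; up to 6 called between KO ages; up to 4 per gene list; neighbours of the 10% limit; and other events of named genes. The members, gene lists and tests were chosen with earlier results of these data known. One member that this rule names is not reported here.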

Additional observations from a re-analysis of the deposited data

Results flagged for a closer look

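In 4 of the 425 members the KO-minus-WT change of the long-to-short ratio differed between week 18 and week 5 by edgeR's test of that difference (adjusted p under 0.05), where 0.787% of all events tested differed. In Pb1 (3769) the log2 change was larger at week 18 by 3.6 (SE 0.62, adjusted p = 0.00485), with KO means of 52.4% and 75.9% and WT means of 9.14% and 2.17% at weeks 5 and 18. In Sorbs2 (4048) it was larger by 1.83 (SE 0.36, adjusted p = 0.0145), with KO means of 60.2% and 71.2% and WT means of 8.90% and 4.26%. In Phka1 (3832) it was larger by 1.89 (SE 0.39, adjusted p = 0.0179), with KO means of 8.55% and 12.6% and WT means of 2.23% and 0.925%. Sorbs2 did not pass in 4 of 25 alternatives, each leaving out a library (adjusted p up to 0.0662), and Phka1 not in 8, with the replicate block (0.0804) or a library left out. In these 3 members the KO mean was higher and the WT mean lower at week 18 than at week 5.

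Nrap (4390), which encodes an anchoring protein of the sarcomere, went the other way, with a fitted difference of -8.46 (adjusted p = 0.0380). That fitted value depends on the prior count, since no long count was seen in KO at week 18, in 0 of 75286 counts over the 3 libraries, which allows a share of up to 0.00398% (3 counts, counting error only). WT had 30, 14 and 17 long counts at week 18, and 6, 0 and 1 at week 5, where KO had 0, 2 and 13. The call was lost in 13 of 25 alternatives, among them limma on log ratios (0.0856), the replicate block (0.123), no count filter (0.183) and without KO week 5 library 3 (adjusted p = 0.355).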

How the results depend on the processing

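Counts of members by direction against WT, between KO weeks 5 and 18 and in the interaction moved by at most 1.5 times under several alternatives. These were another tool (DESeq2, limma on log ratios), another scaling (TMM, RLE), other count filters and pooled WT counts in the rule. Leaving out members that share a count column was a further one. A fit within each age gives only the counts against WT, and those moved by at most 1.5 times. Between KO weeks 9 and 18 DESeq2 called 4 members and edgeR 1. With a WT limit of 5% (308 members), the count chosen by the other ages was 39 at week 18, 5 members differed between KO ages and 2 in the interaction. With a limit of 20% (582 members), 44 were called lower and 16 differed between KO ages. Asking for a change of at least 5 points left 15, 24 and 36 called higher, 15, 24 and 34 when chosen by the other ages, and 5 called lower. In the 3′-end data DESeq2 on recovered reads called 14 genes of members, against 3.

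Leaving out each library in turn gave 21 to 29 members called higher at week 5, 25 to 51 at week 9 and 43 to 68 at week 18. When chosen by the other ages it gave 21 to 29, 25 to 51 and 41 to 66. It gave 23 to 29 called lower, 2 to 23 between KO ages and 1 to 11 in the interaction, where only Pb1 passed each time. Totals gave 20 to 43, 26 to 66 and 51 to 113, and the 3′-end test 1 to 12 genes. Over 24 fits per age, 12 members were called higher at all 3 ages in every fit: Pb1, Clip1, Sorbs2, Mbnl2, Strn3, Ppp3cc, Phka1, Chchd7, Kif21a, Ptprm, Msi2 and Immt. Among the alternatives for the members named first, those between KO ages and those in the interaction, 484 kept the call, 70 lost it and none changed sign. The cause of these losses was not tested.

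The labels do not say whether equal library numbers pair the samples, and a weak correlation cannot exclude it. Deviations of same-numbered WT and KO libraries correlated at -0.053 to 0.137 over 1574 events, over 0.1 in 1 of 9 pairs. Of 9 WT libraries, 4 correlated best with their own number, among them each of week 18 (0.137, 0.063 and 0.043). With the number as a replicate block, 23, 41 and 57 members were called higher (23, 41 and 55 when chosen by the other ages), 22 lower, 3 in the interaction (without Phka1 and Nrap) and 13 genes in the 3′-end data. Depth limits the members with under 100 counts, where single libraries held few long counts.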
